A study of Mus musculus with 6 samples.

Results

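The genes of mitochondrial fusion, fission and uncoupling were followed here in DJ-1-deficient myotubes through 9 members, written MFN1, MFN2, OPA1, DNM1L, FIS1, UCP2, UCP3, SLC25A4 and SLC25A5 in the probe report. They were chosen by name, ignoring case, among the 30854 gene names on the array, and 22 of its 45281 probes carry one of these names. Each probe was kept separate. C2C12 is an established mouse myoblast line whose cells fuse into multinucleated myotubes when serum is lowered. Total RNA came from C2C12 myotubes transfected as myoblasts with 60 nM of either a scramble siRNA or an siRNA against DJ-1, the protein encoded by Park7. There were 3 samples in each group, and both groups were moved 48 h after transfection into medium with 2% horse serum for 96 h. A single siRNA stood for each group, and no untransfected culture was included. Nothing in the labels says that the replicates were separate cultures, so the p-values measure only the spread between these samples, which may be technical.

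Mitochondria fuse and divide continuously, and the balance sets their shape and their distribution in the cell. Mitofusins join the outer membranes, OPA1 joins the inner membranes, and the dynamin-related GTPase DRP1, encoded by Dnm1l, constricts the organelle after recruitment to its surface. Uncoupling proteins and the adenine nucleotide translocases belong to the same carrier family of the inner membrane and can let protons return to the matrix without ATP synthesis, and UCP3 is the form known from skeletal muscle.

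Park7, the targeted gene, was represented by a single probe, with signals of 12019.5, 10900.4 and 12251.4 intensity units in scramble myotubes and 5934.8, 6585.5 and 4233.7 in DJ-1 siRNA myotubes. The groups were far apart. Normalized, the probe averaged 13.53 ± 0.14 (SD, n = 3) on the log2 scale with scramble siRNA, and 12.37 ± 0.19 (SD, n = 3) after knockdown. The log2 fold change was -1.16 (95% confidence interval -1.49 to -0.84, adjusted p = 0.00344), leaving 44.7% of the scramble level.

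The arrays were of like brightness, with median signals of 162.2, 167.4 and 153.5 in scramble and 161, 166.9 and 152.3 in DJ-1 siRNA samples. Probe detection differed between the groups. At a detection p-value under 0.05, 16985, 17399 and 18179 probes were detected on the scramble arrays, against 18704, 18857 and 18408 on the DJ-1 siRNA arrays. Over the beads of a probe, scramble samples had median standard errors of 11.3, 8.30 and 8.66 intensity units, and knockdown samples 7.17, 6.36 and 5.88. The scramble arrays thus had fewer detected probes and wider bead errors throughout, which bears most on dim probes such as those of Opa1 and Ucp3, and its part in their values was not tested.

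Markers of the labelled cell type were present and shifted between the groups. Of 48 tested probes for 25 myotube genes, 27 fell and 2 rose, so that 60.4% were called beside 30.1% of all tested probes, and the median log2 fold change was -0.46 beside 0.05. Their summed signal was 477812, 485056 and 448535 in scramble samples and 400368, 457504 and 344955 in DJ-1 siRNA samples, and the brightest probe in scramble samples was that of Mylpf, a fast-muscle myosin light chain. Nebulin, Neb, was the only one of the 26 listed genes with no detected probe. Myh4, a fast myosin heavy chain, had the largest fitted fall of the list, with log2 signals of 9.13, 8.43 and 9.23 in scramble and 5.03, 5.45 and 5.15 in DJ-1 siRNA samples (log2 fold change -3.72, adjusted p = 0.00224). It was detected on a single DJ-1 siRNA array, so this size is set by values near background, and with no background correction and a 75th percentile shift it was -1.90, smaller than the -2.09 of a Mef2c probe. The next falls belonged to Mef2c, a transcription factor of muscle differentiation (-2.61 and -2.48, adjusted p = 0.00277 and 0.00308), whose other tested probes fell as well (-2.37 and -0.52). The called rises were those of a pair of probes of Ttn, the giant sarcomere protein titin (1.77 and 0.76, the latter detected on a single scramble array, down to 0.24 without background correction and not called in 7 of 14 alternatives), while 3 other Ttn probes fell (-0.76, -0.64 and -0.59). Myog, the myogenin gene that marks the start of terminal differentiation, did not pass the test with either probe (0.22 and -0.11, adjusted p = 0.212 and 0.432).

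Markers of undifferentiated or cycling myoblasts did not move the other way. Of 20 tested probes for 14 genes, 7 fell and none rose, or 35% called beside 30.1% of all tested probes, with a median log2 fold change of -0.18. The fallen probes belonged to the inhibitors of differentiation Id1 (-0.57) and Id3 (-1.40), the cyclins Ccnb1 (-0.57) and Ccnd1 (-0.51 with each of a pair of probes) and the replication factors Mcm5 (-0.94) and Pcna (-0.57). Their summed signal was 21476, 23398 and 20755 in scramble samples and 17664, 21089 and 15170 in DJ-1 siRNA samples. A further probe of Ccnb1 (-0.31) and of Ccnd1 (-0.42) was not called. The calls of Ccnd1 and Id1 were lost in 8 or 9 of 15 alternatives, and the Id3 fall was -0.70 with no background correction. Ccnd1 was the brightest in scramble samples, and Pax7, which defines muscle stem cells, was not detected on any array. In bulk RNA, fewer differentiated cells and less RNA per cell cannot be told apart, and the part of these shifts in the values below was not tested.

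Across the array, 30.1% of 17890 tested probes were called at an adjusted p under 0.05, 16.5% as higher and 13.6% as lower after knockdown. Against this background, 15 of the 22 probes of the fusion, fission and uncoupling genes passed the filter, 2 of the 15 were called, and both fell. In 48.5% of all tested probes the groups did not overlap, beside 5 of these 15. The median log2 fold change of the 15 was -0.11. The filter asked for detection on at least 3 of the 6 arrays, and 12 of the 15 probes were detected on all 6. The Ucp3 probe passed mainly through the DJ-1 siRNA arrays. The 7 remaining probes were too dim for the test, and 4 of them were detected on no array.

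**Figure D1:**
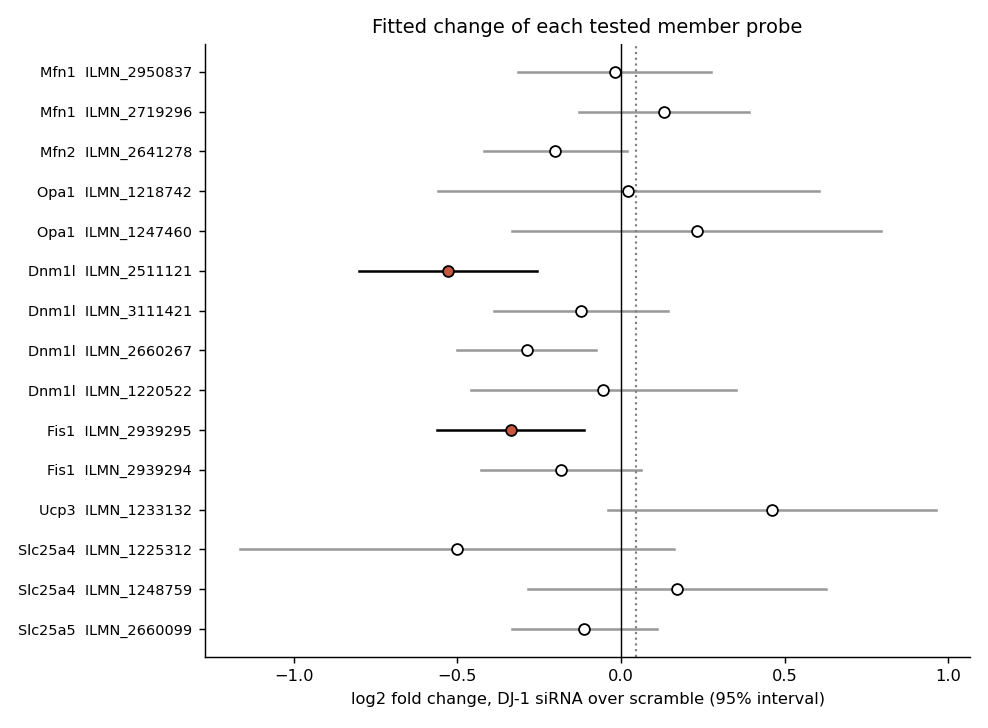
Fitted log2 fold change (DJ-1 siRNA over scramble) of each of the 15 tested probes with its 95% confidence interval. Filled points had an adjusted p under 0.05 and the dotted line is the median of all tested probes (0.05). The called points are a Dnm1l probe at -0.53 and a Fis1 probe at -0.34.

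Fission genes held both called probes. The probe ILMN_2511121 of Dnm1l, the GTPase that drives division, gave 1690.8, 1705 and 1446.3 intensity units in scramble and 1228.9, 1316.6 and 908.7 in DJ-1 siRNA samples. All scramble samples lay above all knockdown samples. On the normalized log2 scale the scramble mean was 10.53 ± 0.09 (SD, n = 3), and the mean after knockdown was 10.00 ± 0.14 (SD, n = 3). The log2 fold change was -0.53 (95% confidence interval -0.80 to -0.26, adjusted p = 0.0168), or 69.3% of the scramble level. The call was lost without scramble replicate 2 (-0.50, adjusted p = 0.0503) and without DJ-1 siRNA replicate 3 (-0.45, adjusted p = 0.0548).

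The other Dnm1l probes did not pass the threshold. ILMN_2660267 gave 458, 467.4 and 450.5 intensity units in scramble and 385.6, 413 and 340.6 in DJ-1 siRNA samples. These groups did not overlap either, and the log2 fold change was -0.29 (95% confidence interval -0.50 to -0.08, adjusted p = 0.0501). This probe was called with the stricter detection filter (adjusted p = 0.0268) and with a variance estimated from each probe alone (adjusted p = 0.0196). It was not called in the 13 other alternatives, with a trended variance (adjusted p = 0.122) and the replicate block (adjusted p = 0.105) among them, and its value ran from -0.31 to -0.20. ILMN_3111421 had 9.97, 9.76 and 9.73 in scramble and 9.76, 9.73 and 9.59 in DJ-1 siRNA samples, with overlapping groups (-0.12, adjusted p = 0.44). Over the alternatives this value ran from -0.17 to -0.05, the smallest without scramble replicate 1. The dimmest, ILMN_1220522, also overlapped (-0.05, adjusted p = 0.838), and its sign turned without scramble replicate 3 (0.12). The mean of the 4 probes was 8.81 in scramble and 8.57 in DJ-1 siRNA samples on the log2 scale, a log2 fold change of -0.25 (95% confidence interval -0.46 to -0.04) that missed the threshold over 12623 genes (adjusted p = 0.0688).

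Fis1 encodes an outer-membrane adaptor linked to division. Its probe ILMN_2939295 gave 3472.7, 3713.4 and 3318.4 intensity units in scramble and 2781.2, 3318 and 2458.2 in DJ-1 siRNA samples. On the normalized log2 scale the samples stood at 11.69, 11.79 and 11.70 against 11.36, 11.47 and 11.34, without overlap. The log2 fold change was -0.34 (95% confidence interval -0.56 to -0.11, adjusted p = 0.0375), or 79.2% of the scramble level. This call was close to the threshold and was lost without any one array, whichever was left out, with log2 fold changes of -0.36, -0.31 and -0.35 without scramble replicates 1, 2 and 3 and -0.32, -0.38 and -0.31 without DJ-1 siRNA replicates 1, 2 and 3. It was also lost after normexp with a 75th percentile shift (-0.21, adjusted p = 0.163), but kept with that shift and no background correction (-0.25, adjusted p = 0.0414). It was lost without the filter (adjusted p = 0.087) and with the replicate block (adjusted p = 0.0705).

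The second Fis1 probe, ILMN_2939294, stood at 10.95, 10.77 and 10.76 in scramble and 10.71, 10.57 and 10.65 in DJ-1 siRNA samples. All knockdown samples were again lower, and the log2 fold change of -0.18 did not pass the test (95% confidence interval -0.43 to 0.06, adjusted p = 0.217), and over the alternatives it ran from -0.22 to -0.08. The mean of both Fis1 probes had a log2 fold change of -0.26 (95% confidence interval -0.46 to -0.06, adjusted p = 0.0537).

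**Figure D2:**
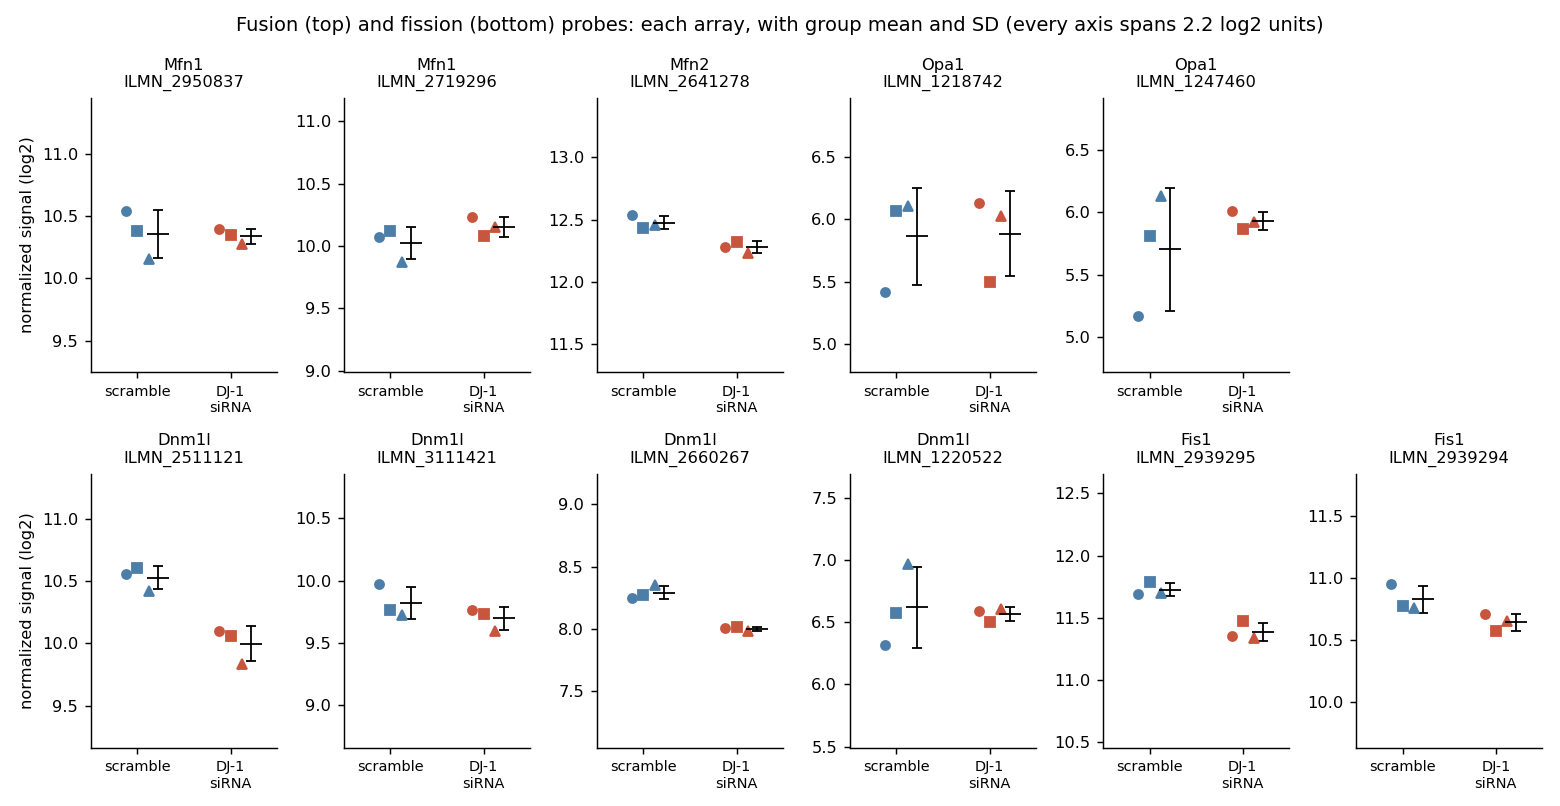
Normalized log2 signal of the tested fusion probes (top) and fission probes (bottom) on each array, with circles, squares and triangles for replicates 1, 2 and 3 and group mean ± SD in black. Scramble and DJ-1 siRNA samples are apart for the Dnm1l probes ILMN_2511121 and ILMN_2660267, both Fis1 probes and the Mfn2 probe, and overlap for Mfn1, Opa1 and the other Dnm1l probes.

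Since the called probes belonged to the fission genes Dnm1l and Fis1, the bases before their annotated starts are shown. RefSeq, on GRCm38.p6, gave 13 start sites for the 9 genes, and the 250 bases before each were searched on both strands for CCGGAAGT, a site of ETS-family factors such as GABP, for CAGCTG, an E-box of the kind bound by MyoD, and for GCGCANGCG, the core of the NRF-1 site. These letters occurred in 2.88%, 13% and 5.16% of 32851 such windows of all genes. Below, the Dnm1l window at chr16:16358576-16358825 (minus strand) has the letters CAGCTG in capitals beginning 221 bases before its start. The Fis1 window at chr5:136953025-136953274 (plus strand) has the letters CCGGAAGT in capitals beginning 18 bases before its start.
Dnm1l: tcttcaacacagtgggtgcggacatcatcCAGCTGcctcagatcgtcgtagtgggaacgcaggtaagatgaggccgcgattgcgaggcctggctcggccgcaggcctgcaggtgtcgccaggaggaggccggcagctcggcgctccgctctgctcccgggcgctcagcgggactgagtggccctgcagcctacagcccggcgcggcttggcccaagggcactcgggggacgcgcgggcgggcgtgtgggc
Fis1: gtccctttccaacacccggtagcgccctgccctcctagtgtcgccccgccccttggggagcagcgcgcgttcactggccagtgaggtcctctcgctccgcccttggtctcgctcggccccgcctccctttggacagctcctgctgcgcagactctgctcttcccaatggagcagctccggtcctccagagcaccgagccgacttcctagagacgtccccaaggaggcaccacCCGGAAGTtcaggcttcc
This Dnm1l window lies inside the gene, downstream of its other annotated start. Its CAGCTG may therefore be transcribed or coding sequence of the longer form rather than promoter sequence, which was not tested. The windows of the other annotated start of either gene held none of these motifs and are not printed. Among the other members, the ETS letters occurred before Mfn1, the E-box before Ucp2 and Ucp3, and the NRF-1 core before Opa1, where a pair of overlapping matches covers a single palindrome. These matches are descriptions of the sequence, and no binding was measured.

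Fusion genes gave no call. Mfn2, a mitofusin of the outer membrane, was read by ILMN_2641278 at log2 signals of 12.54, 12.43 and 12.46 in scramble and 12.28, 12.33 and 12.23 in DJ-1 siRNA samples. The groups did not overlap. The log2 fold change was -0.20 (95% confidence interval -0.42 to 0.02, adjusted p = 0.144), and it was called with a trended variance (adjusted p = 0.0297) and with a variance from each probe alone (adjusted p = 0.0471). The value shrank to -0.06 (adjusted p = 0.657) after normexp with a 75th percentile shift and to -0.12 (adjusted p = 0.331) with that shift and no background correction. A second Mfn2 probe, designed to a predicted transcript record, was not detected on any array.

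Mfn1, the other mitofusin, had a pair of well-detected probes. ILMN_2719296 stood at 10.07, 10.12 and 9.87 in scramble and 10.23, 10.08 and 10.15 in DJ-1 siRNA samples, with overlap (0.13, 95% confidence interval -0.13 to 0.39, adjusted p = 0.398). Its value was 0.06 without scramble replicate 3 and 0.21 after normexp with a 75th percentile shift. ILMN_2950837 stood at 10.54, 10.38 and 10.15 against 10.39, 10.35 and 10.27, again with overlap (-0.02, 95% confidence interval -0.31 to 0.28, adjusted p = 0.921). The sign of this last value was positive after either 75th percentile shift (0.07 and 0.02). The remaining Mfn1 probe was not detected.

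The within-array difference between the brightest probes of the mitofusins, Mfn2 minus Mfn1 on the log2 scale, was 2.00, 2.05 and 2.31 in scramble and 1.89, 1.98 and 1.96 in DJ-1 siRNA samples. It is a contrast of probes and not of transcript amounts. All knockdown samples had the smaller difference, and the groups differed by -0.18, with an exact two-sided permutation p of 0.1, the smallest that 3 samples against 3 allow. Without scramble replicate 3 the groups differed by -0.09. The p adjusted over the 2 paralog pairs that could be tested was 0.2, by the same exact test.

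Opa1, the GTPase of inner-membrane fusion, was near background. ILMN_1218742 gave 179.4, 209.7 and 194.3 intensity units in scramble and 201.4, 182.9 and 182.9 in DJ-1 siRNA samples. ILMN_1247460 gave 167.6, 198.4 and 195.4 against 195.7, 198.1 and 178.9. In both, scramble replicate 1 was the lowest on the normalized scale and the only array without detection, and the groups overlapped. The log2 fold changes were 0.02 (95% confidence interval -0.56 to 0.61) and 0.23 (-0.33 to 0.80), intervals too wide to tell a moderate rise from a moderate fall. The first turned to -0.09 after normexp with a 75th percentile shift, and without scramble replicate 1 they were -0.21 and -0.04. The third Opa1 probe was detected on a single array of each group and was not tested.

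Ucp3, the uncoupling protein of skeletal muscle, lay at the edge of detection. Its probe ILMN_1233132 gave 165.8, 154.5 and 173.9 intensity units in scramble and 188.3, 188.9 and 163.9 in DJ-1 siRNA samples. The lowest detected signals on the same arrays were 186.8, 187.4 and 167.2 in scramble and 171.3, 176.8 and 161.6 in DJ-1 siRNA samples, so scramble replicate 3 and all knockdown samples were detected. The arrays' own limits thus differed, and the raw signals of the groups overlapped.

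The normalized log2 signals of this probe were 5.13, 4.83 and 5.61 in scramble and 5.83, 5.65 and 5.47 in DJ-1 siRNA samples. Scramble replicate 3 lay above DJ-1 siRNA replicate 3. The log2 fold change of 0.46 did not pass the test (95% confidence interval -0.04 to 0.96, adjusted p = 0.142). Without scramble replicate 3 it was 0.67 with an adjusted p = 0.0369. That replicate was the only scramble array with detection, so this value sets the knockdown samples against background and is not read as a rise. Over the alternatives it entered the value ran from 0.16 to 0.67, with adjusted p-values from 0.0369 to 0.328.

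A second Ucp3 probe, ILMN_2452102, gave 150.1, 155.7 and 133.1 intensity units in scramble and 178, 185.1 and 149.7 in DJ-1 siRNA samples. It was detected on DJ-1 siRNA replicates 1 and 2 alone and therefore not tested. Its normalized log2 signals were 4.87, 4.85 and 4.69 against 5.55, 5.56 and 4.99, all knockdown samples being higher. No fold is given, because its mean after knockdown was not above the lowest detected level of the scramble arrays.

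Ucp2, the broadly expressed uncoupling protein, had 3 probes and none was tested. ILMN_2855123 gave 230.6, 148.8 and 149.7 intensity units in scramble and 138.5, 151.5 and 141.3 in DJ-1 siRNA samples. Only scramble replicate 1 was detected, with a bead standard error of 25 units beside 3.26 to 11.1 on the other arrays. Taken as a bound, the scramble mean was at least 1.03-fold the knockdown level, a value set by that 1 array. The other Ucp2 probes were not detected on any array, and neither was the Ucp1 probe, which reads the uncoupling protein of brown fat.

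With no tested Ucp2 probe, the Ucp3 minus Ucp2 difference could not be formed in the filtered data. Among all probes without a filter it was -1.38, 0.09 and 0.62 in scramble and 1.2, 0.94 and 0.71 in DJ-1 siRNA samples. The knockdown samples were all higher (exact permutation p = 0.1, adjusted over 3 pairs 0.15). The Ucp2 side of this contrast was undetected on 5 of the 6 arrays, so it rests on background signal.

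**Figure D3:**
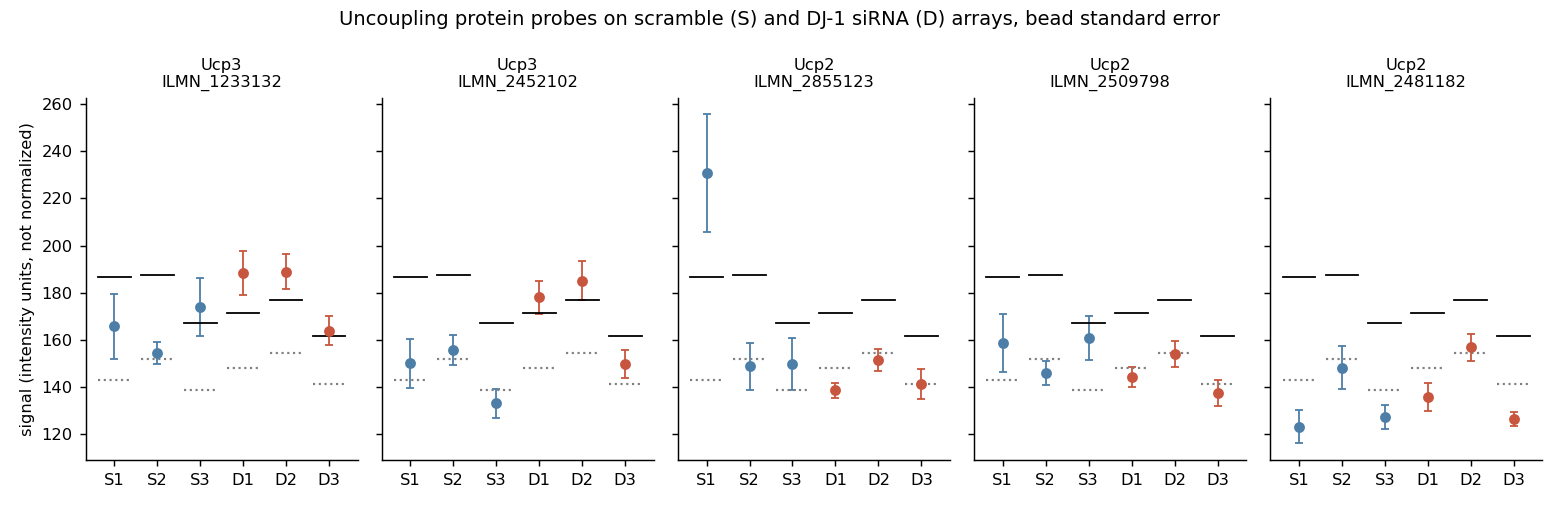
Signal of the Ucp3 and Ucp2 probes in intensity units before normalization, with the bead standard error, on scramble (S, blue) and DJ-1 siRNA (D, red) arrays. Black bars mark each array's lowest detected signal and dotted bars its signal at a detection p-value near the middle of the range. ILMN_1233132 of Ucp3 is above the black bar on S3, D1, D2 and D3, and among the Ucp2 probes only S1 of ILMN_2855123 is.

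The adenine nucleotide translocases exchange ADP and ATP across the inner membrane. Slc25a5 was read by a bright probe at 13769.3, 14946.3 and 14798.4 intensity units in scramble and 13471.4, 15101.1 and 13091.4 in DJ-1 siRNA samples. Its log2 signals were 13.80, 13.84 and 13.92 against 13.71, 13.71 and 13.80, and the groups met at 13.80. The log2 fold change was -0.11 (95% confidence interval -0.33 to 0.11, adjusted p = 0.397), and it was 0.04 after normexp with a 75th percentile shift.

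Slc25a4, the translocase known as the heart and muscle form, had a pair of dim probes with fitted values of opposite sign. ILMN_1225312 stood at 6.68, 7.27 and 6.93 in scramble and 6.09, 6.23 and 7.05 in DJ-1 siRNA samples, where replicate 3 lay among the scramble values (-0.50, 95% confidence interval -1.17 to 0.16, adjusted p = 0.216). Without that replicate the value was -0.80 (adjusted p = 0.0504), without DJ-1 siRNA replicate 1 it was -0.32, and with no background correction it was -0.21. ILMN_1248759, designed to a predicted transcript record, stood at 7.14, 6.97 and 6.55 against 7.26, 7.11 and 6.80 (0.17, 95% confidence interval -0.29 to 0.63, adjusted p = 0.535), a value that ran from 0.0013 without scramble replicate 3 to 0.30 without DJ-1 siRNA replicate 3. Neither passed the test, and the groups overlapped in both. Whether ILMN_1248759 reads Slc25a4 could not be checked, since probe sequences were not in the files.

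The Slc25a4 minus Slc25a5 difference of the brightest probes, the uncertain ILMN_1248759 for Slc25a4, was -6.66, -6.87 and -7.37 in scramble and -6.45, -6.60 and -7.00 in DJ-1 siRNA samples. The groups overlapped (difference 0.28, exact permutation p = 0.4, adjusted p 0.4). This difference was 0.08 without scramble replicate 3 and 0.44 without DJ-1 siRNA replicate 3. It turned to -0.05 when the Slc25a4 probes were averaged.

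The Dnm1l probe ILMN_2511121 had the smallest adjusted p of the 15. Over the 6 arrays, the tested probes of other genes most like it were those of Tnnt3, fast skeletal troponin T (Pearson r = 0.999), Bgn, the matrix proteoglycan biglycan (0.996), Acot1, a cytosolic acyl-CoA thioesterase (0.995), G3bp2, a stress-granule protein (0.995), and the unnamed gene 4930533K18Rik (0.995). These values describe 6 samples in 2 groups, picked from 17890 probes. Of these probes, Tnnt3 (-0.52, adjusted p = 0.0164) and G3bp2 (-0.62, adjusted p = 0.0115) fell, and those of Bgn, Acot1 and 4930533K18Rik were not called (-0.24, -0.22 and -0.32), although 6, 3 and 1 of 15 alternatives called 4930533K18Rik, Bgn and Acot1. The G3bp2 call was kept in all 15 alternatives, and the Tnnt3 call was lost in 2, when replicate 1 or 3 of the DJ-1 siRNA group was left out (-0.56 and -0.44, the latter with an adjusted p = 0.0542).

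The wider pathway was read through 5 lists of other genes, with 94 tested probes for 59 genes. Of these, 27 were called, 14 higher and 13 lower, or 28.7% beside 30.1% of all tested probes, and their median log2 fold change was 0.005. The count fell to 12 without DJ-1 siRNA replicate 1, to 10 without DJ-1 siRNA replicate 3, and to 16 without scramble replicate 2 or 3. The share called among all tested probes fell in these fits too, to 14.3%, 15.2%, 21.1% and 22.2% in the same order.

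In fusion and inner-membrane shaping, 7 of 24 tested probes fell and none rose (29.2%, median log2 fold change -0.24), and 7 of the 21 listed genes had no detected probe. Mtch2, an outer-membrane insertase also linked to fusion, was read by 3 called probes. The first, ILMN_2848583, stood at 9.92, 9.93 and 10.05 in scramble and 8.56, 8.85 and 8.53 in DJ-1 siRNA samples (-1.32, adjusted p = 0.00277). The others fell by 1.07 and 0.42 on the log2 scale. Parl, the rhomboid protease of the inner membrane, fell by 0.49 and 0.45 with its probes (adjusted p = 0.0243 and 0.041). Letm1, an inner-membrane ion exchanger, fell by 0.82 with its only tested probe (adjusted p = 0.0246). A probe of Afg3l1, a subunit of an inner-membrane protease, fell by 0.62 (adjusted p = 0.0427), and its 4 other tested probes were not called (-0.22 to 0.12). The Afg3l1 call was lost in 11 of 14 alternatives, with a value as small as -0.20, those of Parl in 5 and 8 of 15, that of Letm1 in 5 and the smallest Mtch2 fall in 8.

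Among fission adaptors and regulators, 1 of 17 tested probes was called (5.88%, median log2 fold change 0.02). It was a probe of Marchf5, an outer-membrane ubiquitin ligase, with log2 signals of 5.25, 5.23 and 5.29 in scramble and 5.66, 5.66 and 6.02 in DJ-1 siRNA samples. It was detected on no scramble array and passed the filter through the DJ-1 siRNA arrays alone, so its difference is only a bound of at least 1.2-fold, and with no background correction the log2 fold change was as small as 0.16, below that bound. The call was lost in 11 of 14 alternatives, the one without a filter among them, and is not read as a rise, and the second Marchf5 probe was not called (0.06, adjusted p = 0.73). The receptors that recruit DRP1, Mff, Mief1 and Mief2, named here after their values were seen, gave no call.

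Mitochondrial transport along the cytoskeleton had 8 of 14 tested probes called, 3 higher and 5 lower (57.1%, median log2 fold change -0.08). Kif1b, a kinesin motor, took part in both directions. Of 4 tested probes designed to a RefSeq transcript record of Kif1b, 3 rose and none fell, with log2 fold changes of 0.52 to 1.62. Of 3 designed to another record, 2 fell and none rose, from -1.07 to -0.11. Of these calls, a rise (0.64, ILMN_2670778) was lost in 5 of 15 alternatives and a fall (-0.46, ILMN_2587761) in 7, which leaves 2 rises and 1 fall where both are lost. This grouping by record was made after the values were seen.

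The Kif1b probe with the largest rise, ILMN_2647921, stood at 5.92, 6.23 and 6.09 in scramble and 7.88, 7.58 and 7.65 in DJ-1 siRNA samples (1.62, adjusted p = 0.00236). Its scramble values were dim, and the size depended on the background step, down to 0.76 with none, while the call was kept in all 14 alternatives it entered. The one with the largest fall, ILMN_3034877, stood at 11.15, 11.17 and 11.07 against 9.99, 10.14 and 10.05 (-1.07, adjusted p = 0.00277). Neither overlapped between groups. Trak2, an adaptor that ties mitochondria to motors, fell by 0.83 and 0.81 with its probes (adjusted p = 0.012 and 0.00363). A probe of Rhot2, the membrane GTPase Miro2, fell by 0.32 (adjusted p = 0.0425), and its other tested probes were not called (-0.20 and -0.05). The Rhot2 call was lost in 9 of 15 alternatives, among them every left-out array, and those of Trak2 in none.

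Genes of proton leak and of adenine nucleotide or phosphate exchange had 5 of 15 tested probes called, all higher (33.3%, median log2 fold change 0.02). The 5 include Slc25a27, which entered the test only through the group where it was high. Slc25a27, a brain-type uncoupling protein, stood at 5.05, 5.43 and 4.97 in scramble, where it was not detected, and 6.30, 6.02 and 6.22 in DJ-1 siRNA samples, a bound of at least 1.58-fold (adjusted p = 0.00557). The bound holds only for the main background step, since with no background correction the log2 fold change was as small as 0.33. It too passed the filter through the DJ-1 siRNA arrays alone. Its adjusted p thus sets these arrays against background and is not read as a rise. The call was kept in all 14 alternatives it entered, the one without a filter among them (adjusted p = 0.0115). Slc25a30, a carrier related to the uncoupling proteins, rose by 0.93 (adjusted p = 0.0161), and Slc25a42, a mitochondrial coenzyme A carrier, by 0.79 (adjusted p = 0.025). Vdac1, the outer-membrane anion channel, rose by 0.41 and 0.35 with its probes (adjusted p = 0.0375 and 0.0334). The Vdac1 calls were lost in 8 and 7 of 15 alternatives, that of Slc25a42 in 7 of 14 and that of Slc25a30 in 3 of 15. With no background correction the rise of Slc25a42 was as small as 0.26 and that of Slc25a30 as small as 0.57.

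Regulators of mitochondrial biogenesis and of Ucp3 had 6 of 24 tested probes called, 5 higher and 1 lower (25%, median log2 fold change 0.08). Rxra, the retinoid receptor that pairs with PPARs, stood at 5.35, 5.00 and 6.12 in scramble and 7.37, 6.82 and 7.79 in DJ-1 siRNA samples (adjusted p = 0.011), with detection on a single scramble array. The fitted 1.84 is thus set largely against background, ran from 0.75 to 2.16 over the alternatives, and lost its call with a variance from each probe alone (adjusted p = 0.0579). Pparg, the nuclear receptor PPAR-gamma, rose by 1.06 with its only tested probe (adjusted p = 0.0264). Gabpb1, a GABP subunit, rose by 0.93 and 0.72 with its tested probes (adjusted p = 0.045 and 0.0251). The DNA-binding subunit Gabpa rose by 0.77 with a probe (adjusted p = 0.047), and its other tested probe was negative and not called (-0.37, adjusted p = 0.115). Over 15 alternatives the Gabpa call was lost in 8, the Gabpb1 calls in 8 and 5, and the Pparg call in 6. With no background correction these rises were as small as 0.37 for Gabpa, 0.53 and 0.36 for Gabpb1 and 0.60 for Pparg.

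Myod1, the myogenic factor MyoD, was the called fall among these regulators. Its log2 signal was 10.03, 10.17 and 9.94 in scramble and 9.09, 9.16 and 9.18 in DJ-1 siRNA samples (-0.90, adjusted p = 0.00317), without overlap. Ppargc1a, the coactivator of mitochondrial biogenesis, was not called (0.27, adjusted p = 0.178), although it was without scramble replicate 1 (0.39, adjusted p = 0.0487), and it was as small as 0.12 with no background correction. Tfam, which packages and transcribes mitochondrial DNA, was not called with either probe (0.08 and -0.04, adjusted p = 0.718 and 0.827).

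**Figure D4:**
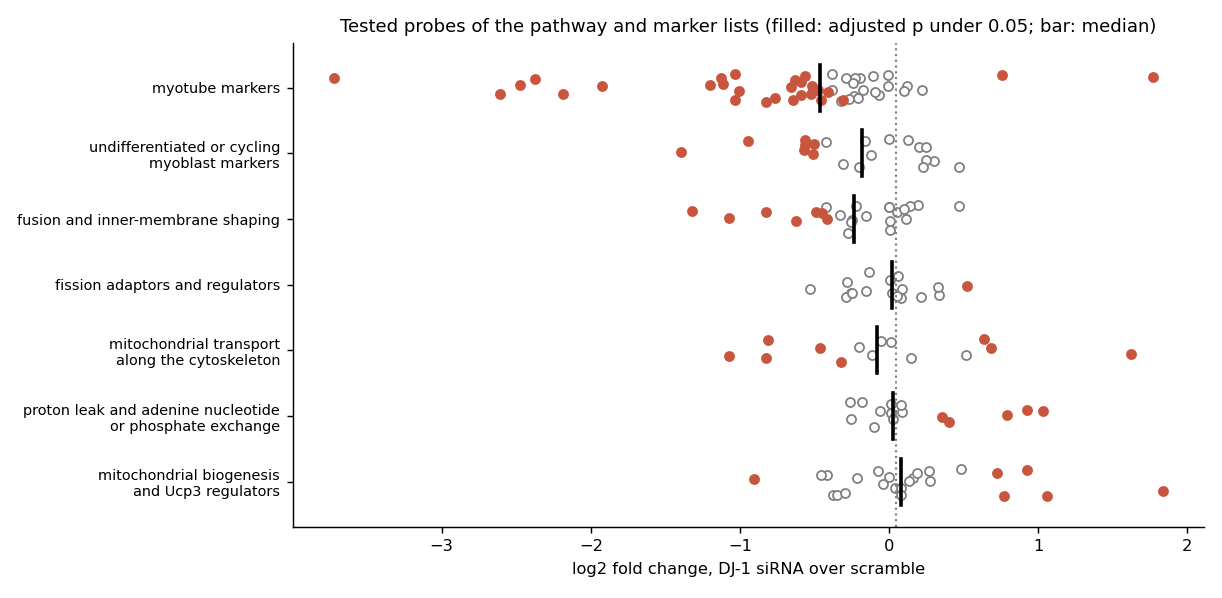
Log2 fold change (DJ-1 siRNA over scramble) of every tested probe in the marker and pathway lists, spread vertically within a list for legibility. Filled points had an adjusted p under 0.05, black bars are list medians and the dotted line is the median of all tested probes (0.05). For fusion and inner-membrane shaping, called points lie only to the left (7 probes of 4 genes, 29.2% of those tested). For proton leak and nucleotide exchange they lie only to the right (5 probes of 4 genes, 33.3% of those tested). Of these 5, Slc25a27 was detected on no scramble array. Among all tested probes 30.1% were called, 13.6% as lower and 16.5% as higher.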

How the data were processed

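The authors labelled 200 ng of RNA per sample, hybridized 1500 ng of cRNA to an Illumina Mouse WG-6 V2 BeadChip and exported probe values with GenomeStudio. The deposited probe report holds the mean signal intensity of each probe without normalization or background subtraction. It also holds a detection p-value per probe, which the authors' software computed against negative controls, with bead standard errors and bead numbers. All 6 arrays lay on a single chip, so no chip batch was present, and array number limits the precision.

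Signals were processed in R 4.3.3 with limma 3.58.1. The neqc step applied normexp background correction from the detection p-values (offset 16), quantile normalization and log2. Probes detected at p under 0.05 on at least 3 of 6 arrays entered lmFit and then eBayes, with Benjamini-Hochberg adjustment over all tested probes. "Called" means an adjusted p under 0.05. The fit was tested on simulated data. The share of false calls was near the nominal level for simulated normalized values and above it for simulated signals, and the limits for passing were reset after earlier versions had missed theirs. Adjusted p-values close to the threshold or of dim probes are therefore read with caution. A probe detected on no array of a group was given as "at least N-fold", its bright group's mean against the higher of the lowest detected level and its own value per array. Paralog differences used the brightest tested probe and a two-sided exact permutation test. Symbols were updated by Entrez number or accession to RefSeq names (GRCm38.p6) for 32345 of 45281 probes.

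Named genes were all member probes, Park7, Ppargc1a, Tfam, Ucp1 and Myog, the genes of each list with a called probe (beyond 6 genes, the called probes with the 3 largest rises and 3 largest falls), and the 5 probes most correlated with the member probe of smallest adjusted p. Members and lists were chosen with earlier results of these data known. Alternatives changed the background correction, normalization, filter, variance model (a trend, or each probe's variance alone, where the study named a moderated test as used here), replicate block, summary over probes, or left out an array.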

Additional observations from a re-analysis of the deposited data

How the results depend on the processing

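The Park7 fall kept its direction and its side of the threshold under every alternative run (log2 fold change -1.24 to -1.003, and -1.24 to -1.05 without single arrays). The Mfn2 minus Mfn1 difference kept its sign and never passed the threshold (-0.26 to -0.0919, and -0.239 to -0.0919 without single arrays), where the exact test could not reach it. A t-test of the same difference, which could reach it, gave an adjusted p = 0.273. The Slc25a4 minus Slc25a5 difference ran from 0.0835 to 0.441 without single arrays and turned to -0.0533 with the mean of a gene's probes, since its Slc25a4 probes had values of opposite sign. A trended variance has no part in the exact test and was not run there.

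Without a filter, more probes were tested and fewer called: 3519 in all, 1 member probe and 12 pathway probes. With each probe's variance alone, 4 member and 17 pathway probes were called. Other choices called more than the main fit: a trended variance 3 member and 33 pathway probes, no background correction with quantile normalization 32 pathway probes, and the stricter filter 3 member probes. After normexp with a 75th percentile shift 1 member probe was called, and as gene means 0 of 8 genes, by limma with 12623 genes tested. Leaving out an array gave 2559 to 5271 called probes, 0 to 2 member probes and 10 to 24 pathway probes, with fewer samples.

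With the replicate number as a replicate block, 4350 probes and 1 member probe were called. Deviations from group means of same-numbered samples correlated at 0.0537, 0.0474 and 0.0199, and those of differently numbered samples at -0.0471 to -0.0037. Each sample thus correlated best with its own number. These correlations are small and cannot tell whether the samples were paired, so the block is given beside the main fit.

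Small values that were not called changed sign. After normexp with a 75th percentile shift these were Mfn1 (0.072), Opa1 (-0.0861), Slc25a5 (0.0441), Bgn (0.0357), Myog (0.0239) and Tfam (0.0228), and with no background correction and that shift Mfn1 (0.0192). Without single arrays the ranges crossing 0 were Mfn1 -0.12 to 0.0712, Opa1 -0.207 to 0.209 and -0.039 to 0.45, Dnm1l -0.206 to 0.12, and Tfam -0.0525 to 0.21 and -0.122 to 0.0474. Values that changed sign within them included Mfn1 (0.0125) and Opa1 (-0.0983 and -0.0488). The cause was not tested. Without background correction the fitted sizes of dim probes shrank, as given for the probes concerned. Named probes of other genes that were called kept their call in 449 comparisons and lost it in 158, with direction kept in each. Opa1, Ucp3 and Ucp2 signals were limited by closeness to background.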
